A study of Anser anser with 2 samples.

Results

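Among the miRNAs named in goose liver, 102 names were listed only for birds. Their number occurred in the 2 files only with the prefix of chicken (gga) or of zebra finch (tgu). They cover 99 of 852 miRNA numbers and 102 of 1343 names, once the species prefix is taken off, with 544 of 26022 distinct sequences (tags). Of the 99 numbers, 79 occurred with the chicken prefix, 18 with the zebra finch prefix and 2 with both. miR-458, miR-460, miR-1388, miR-1788, miR-2188 and miR-2954 were left out by the rule. The rule uses the names alone, as they occur in these files. A number with few tags can carry few prefixes, while an abundant number can gather those of other species and drop out. Low read numbers are thus partly built into the choice of names.

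Small RNA was sequenced in 1 overfed and 1 control library from liver of Landes geese, a breed used to produce fatty liver. The birds were 60 males, 90 days old. Overfed geese received a carbohydrate-rich diet of 3353 kcal, 76 g of protein and 15 g of fat per kg for 21 days, and their tissue is labelled fatty liver. Control geese had free access to basal feed with 2873 kcal and 171 g of protein per kg, and theirs is labelled normal liver. The sources used here do not say how many birds went into a library. With 1 library per group there was no replicate check and no test. All differences are therefore between 2 libraries, and the 95% intervals hold counting error alone. Fewer cells of a type and less RNA per cell cannot be told apart.

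A mature miRNA is a short RNA cut from a hairpin precursor. Loaded into an Argonaute protein, it pairs with messenger RNAs mainly through its seed (bases 2 to 8), so its 5′ end fixes its targets, while its 3′ end varies more. A number is given to a miRNA in the order of naming, and the prefix tells in which species that entry was described. A bird-only number here therefore means that the reference listed for the read in the files was a bird entry, and it does not show that other animals lack the miRNA. miR-217, for example, was listed only for bird entries in these files, although it is well known from mammalian pancreas.

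The references of the 10 bird-only names with the most reads are shown because they range from short repeats to mixed sequence, which the alignments below also divide. The files write T for U, and capitals mark the seed.
tgu-miR-2966: cCGGGACGggaccgggacggg
gga-miR-1559: tTCGATGCttgtatgctactcc
tgu-miR-2981: cCGGGCCGggcgggcggg
gga-miR-1451: tCGCACAGgagcaagttaccgc
gga-miR-3540: aTGGTGGAagaacaaggcctgc
gga-miR-1599: gGAGGGAGgaaaaaaaaaaa
gga-miR-1696: cTGCTGTGatgtgagctgagcatc
gga-miR-1552-5p: tTAGTGCGcggtaagctagggtg
gga-miR-1434: gTGCGTGAtgatggaaaatt
gga-miR-2131: aTGCAGAAgtgcacggaaacagct
miR-2966 and miR-2981 are built almost wholly of G and C in short repeats, and miR-1599 ends in a run of A. The other references are of mixed sequence. Repetition was counted as distinct triplets of bases. miR-2966 held 7 distinct triplets at 19 positions, miR-2981 held 6 at 16 and miR-1599 held 6 at 18, against 17 at 20 for miR-1559 and 18 at 20 for miR-1451. Of the 10 seeds, only that of miR-1599 was shared with a reference of another number in these files (miR-265, miR-4419a and miR-4510).

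The bird-only names were rare, which the rule that chose them partly favours. They summed to 1322 of 9737540 listed miRNA reads in the overfed library and to 922 of 9178938 in the control library. Per 1000000 listed miRNA reads (RPM) this was 136 (exact Poisson 95% interval 129 to 143) in the overfed and 100.4 (94.1 to 107) in the control library. miR-122-5p, the defining miRNA of hepatocytes, held 59.6% of overfed and 55.5% of control reads, and the name miR-122 without an arm mark held another 14.8% of overfed and 17.2% of control reads. The red cell list (names of miR-451 and miR-144) summed to 300.5 RPM in the overfed and 346 RPM in the control library. The leukocyte list (names of miR-142 and miR-223) summed to 100.5 RPM in the overfed and 86.7 RPM in the control library. The muscle list (names of miR-1, miR-133 and miR-206) summed to 876 RPM in the overfed and 819 RPM in the control library. Each list holds chosen names of these miRNAs only. The part of other cells in the results below was not tested.

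Most of the 102 names rested on very few reads. A single read in both libraries together supported 48 of them, 47.1%, against 39.0% of all other names. Another 34 had 2 to 9 reads, and 20 had at least 10. The 82 names under 10 reads summed to 109 overfed and 64 control reads. The names seen in both libraries were 45, while 39 were seen in the overfed library only and 18 in the control library only, or 38.2% and 17.6%. Over all 1343 names, 28.6% were seen in the overfed library only and 20.6% in the control library only. A mean of 10 RPM was reached by 3 bird-only names, 2.94%, against 14.7% of all other names. Since the rule favours numbers with few tags, these differences from other names are partly set by it.

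miR-2966 was the most abundant, with 485 reads in the overfed and 278 in the control library, or 49.8 RPM (45.5 to 54.4) and 30.3 RPM (26.8 to 34.1). miR-1559 came second with 215 overfed and 188 control reads, or 22.1 RPM (19.2 to 25.2) and 20.5 RPM (17.7 to 23.6). miR-2981 had 137 overfed and 65 control reads, or 14.1 RPM (11.8 to 16.6) and 7.08 RPM (5.47 to 9.03). In the overfed library the intervals of these 3 overlapped neither each other nor those of lower names. In the control library miR-2981 was not set apart from the names that follow it.

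miR-1451 had 71 overfed and 62 control reads, 7.29 and 6.75 RPM. miR-3540 had 49 and 64 reads, 5.03 RPM in the overfed and 6.97 RPM in the control library. miR-1599 had 51 and 46 reads, 5.24 RPM in the overfed and 5.01 RPM in the control library. The intervals of these 3 overlapped in each library, so they have no order among themselves. The other 14 names with at least 10 reads lay between 0.31 and 3.70 RPM in the overfed library, and between 0 and 4.36 RPM in the control library.

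**Figure D1:**
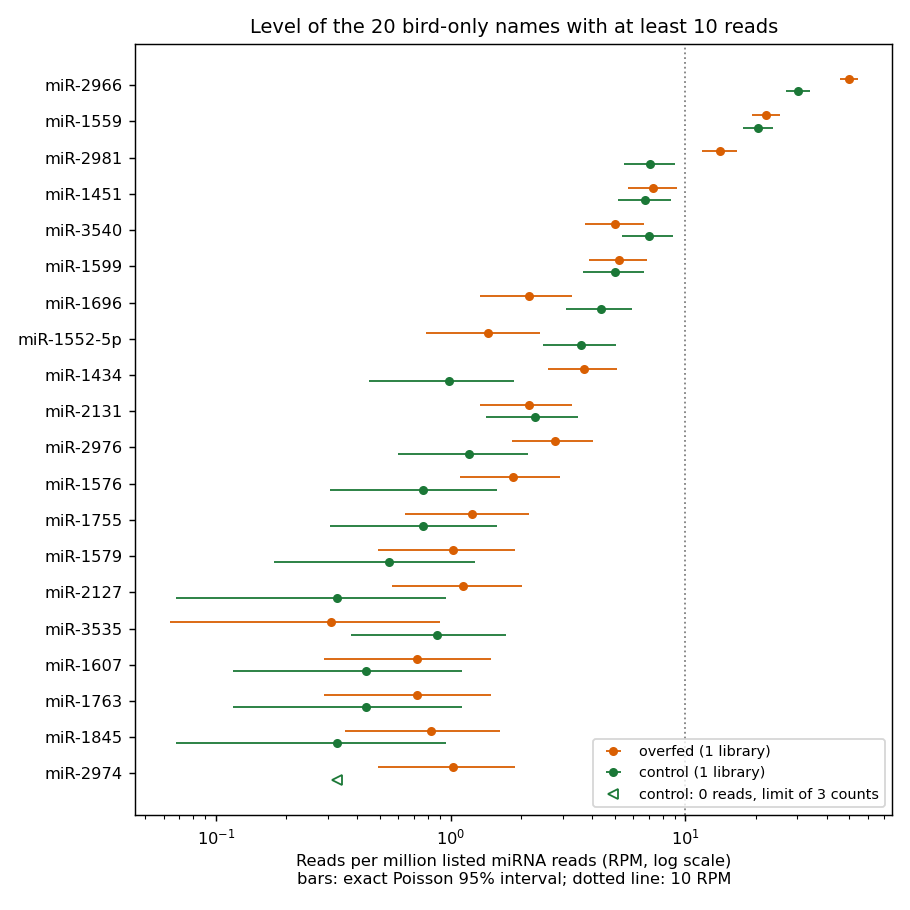
Level in RPM (log scale) of the 20 bird-only names with at least 10 reads, 1 overfed and 1 control library, with exact Poisson 95% intervals. The overfed points of miR-2966 and miR-2981 lie clear of the control points at 49.8 against 30.3 RPM and 14.1 against 7.08 RPM, while those of miR-1559 overlap, and miR-2974 had no control read.

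The names divided sharply by how their reads aligned. The deposited alignments count mismatches and unpaired bases. A read was called exact when it had no mismatch and the deposited score could be reached with unpaired bases at its ends only, substituted when it had mismatches under the same condition, and gapped when that score needed a gap inside the alignment. Exact reads were 338 of 1322 bird-only reads in the overfed library, 25.6% (exact Clopper-Pearson 95% interval 23.2% to 28.0%), and 285 of 922 in the control library, 30.9% (27.9% to 34.0%). Over all other names the exact share was 93.9% in the overfed and 92.7% in the control library. Gapped reads were 63.1% (60.4% to 65.7%) of overfed and 52.7% (49.4% to 56.0%) of control bird-only reads, against 1.97% and 2.22% for all other names. These shares are weighted by reads, and miR-122 with miR-122-5p held 74.4% of overfed and 72.7% of control listed reads. Per name, the median exact share was 0% for bird-only and for all other names. The rule leaves out numbers also listed for other species, so a low exact share can be partly built in.

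By mismatches alone, 409 overfed and 328 control bird-only reads had none, 30.9% (28.5% to 33.5%) and 35.6% (32.5% to 38.8%). One mismatch was found in 602 overfed and 394 control reads, and 2 in 311 overfed and 200 control reads. Among all other names the share without a mismatch was 95.6% in the overfed and 94.7% in the control library, under the limits given for the exact share. The deposited count of mismatches hides part of the division, because a gapped read can be listed with 0 mismatches. miR-2966 had 62 reads listed without a mismatch, and none of its 763 reads was exact.

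Over all other names, most of them with few reads as well, 782 of 1241 had no exact read. Of the 102 bird-only names, 92 had none. The 10 that had any were miR-1559 (401 reads), miR-1451 (119), miR-2131 (42), miR-1434 (41), miR-3535 (11), miR-3533 (3), miR-1416 and miR-1623 (2 each), and miR-2957 and miR-2984 (1 each). In each of the 10 more than 50% of the reads were exact. miR-1559, miR-1451, miR-2131 and miR-1434 held 96.8% of all exact bird-only reads. Among names with at least 10 reads, 5 of 20 bird-only names were mostly exact, against 257 of 403 other names, with medians of 0% and 85.0%. Of these 20 names, 16 had no defined miRNA family in the files. The 80 other names without a family were alike, with 8 mostly exact, a median exact share of 0% and a median gapped share of 94.4%. The 9 such names of the 6 numbers left out were mostly exact in 9 cases, with a median of 86.0%.

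**Figure D2:**
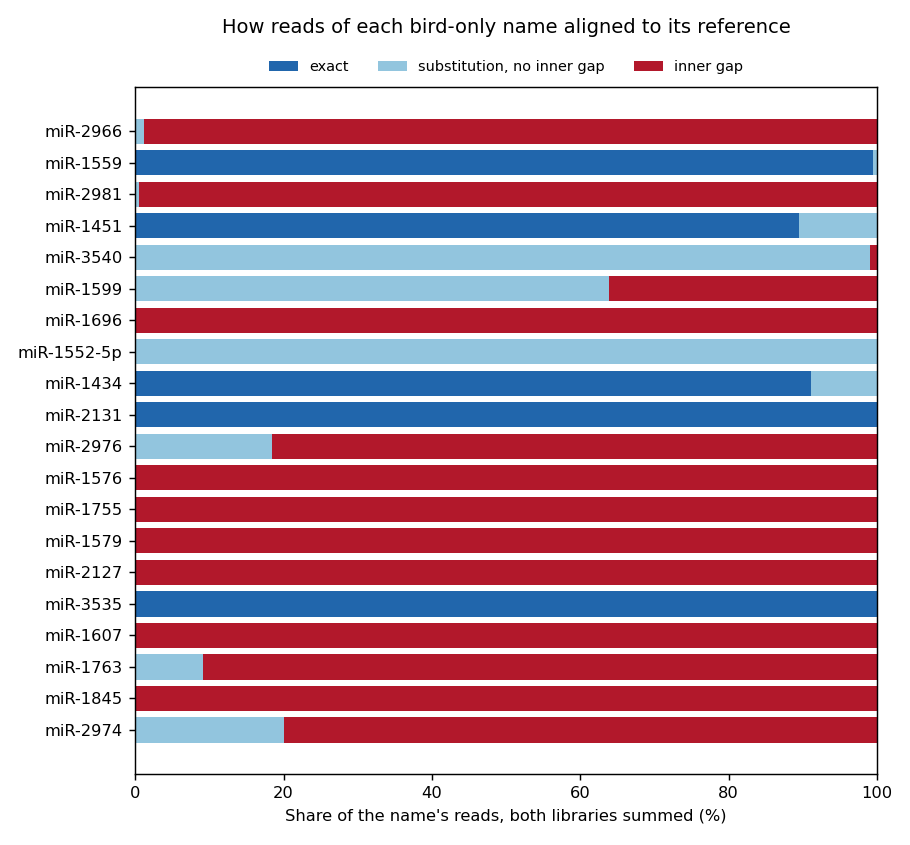
Share of reads (percent, both libraries summed) that were exact, substituted without an inner gap or gapped, for the 20 bird-only names with at least 10 reads, in order of reads. Exact reads (dark blue) fill most of the bars of miR-1559, miR-1451, miR-1434, miR-2131 and miR-3535 only, and gapped reads (red) fill most of 12 bars, those of miR-2966 and miR-2981 among them.

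The reads of the exact names differed mainly in length. miR-1559 held 403 reads in 10 tags, and 401 of them were exact. All 403 reads began with T, which alone does not fix the 5′ end because the reference begins with TT. Of these reads 99.5% carried the reference seed, so the 5′ end was constant in nearly all. Its forms differed at the 3′ end.
miR-1559, 22 bases: tTCGATGCttgtatgctactcc
miR-1559, 21 bases: tTCGATGCttgtatgctactc
miR-1559, 20 bases: tTCGATGCttgtatgctact
miR-1559, 19 bases: tTCGATGCttgtatgctac
The 20-base form was the most common, with 152 of 215 overfed reads, 70.7% (64.1% to 76.7%), and 120 of 188 control reads, 63.8% (56.5% to 70.7%). The 21-base form held 11.2% (7.28% to 16.2%) of overfed and 22.3% (16.6% to 28.97%) of control reads. The 19-base form held 12.6% (8.44% to 17.7%) and 5.32% (2.58% to 9.56%). The full-length form held 3.72% (1.62% to 7.20%) of overfed and 5.85% (2.96% to 10.2%) of control reads. The overfed library thus held more of the shorter forms: 84.2% (78.6% to 88.8%) of its miR-1559 reads had 18 to 20 bases, against 70.7% (63.7% to 77.1%) in the control library. Over all other names the share of 18 to 20 bases was also higher in the overfed library, at 5.28% against 4.14%. What part this plays in miR-1559 was not tested.

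miR-1451 was matched to 2 references, the chicken one with 126 reads and the zebra finch one with 7. All 7 differed from the finch entry by A15G (reference base, position counted from 1 at its 5′ end, read base). The chicken reference has G at this position, and the most common tag of these 7 reads was the chicken reference with G added at its end. Of all 133 miR-1451 reads, 97.0% carried the seed of the reference and 98.5% began with T. The most common tag, tCGCACAGgagcaagttaccg, was the chicken reference less its last base, with 24 overfed and 28 control reads. The form with A added after the last base had 8 overfed reads and 1 control read. Of the reads matched to the chicken reference this was 11.8% (5.22% to 21.9%) and 1.72% (0.04% to 9.24%), with overlapping intervals. Reads of 18 to 20 bases were 16 of 71 overfed reads, 22.5% (13.5% to 34.0%), and 6 of 62 control reads, 9.68% (3.63% to 19.9%), and these intervals overlap.

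miR-2131 and miR-1434 were exact but scarce. miR-2131 had 21 overfed and 21 control reads, all exact and all with the reference seed. Its full 24-base form had 6 overfed and 11 control reads, and the form 2 bases shorter had 7 overfed and 3 control reads. miR-1434 had 36 overfed and 9 control reads, of which 33 and 8 were exact. Its most common tag, gTGCGTGAtgatggaaaattt, was the reference with a T added and had 15 overfed and 4 control reads. miR-3535, with 3 overfed and 8 control reads, was exact as well, but 8 of its 11 reads began 1 base before the reference, so only 27.3% carried the reference seed.

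A second group held names whose reads nearly all differed from the reference in the same base. Each pair below shows the reference and the most common tag, with bases 2 to 8 in capitals.
gga-miR-3540 reference: aTGGTGGAagaacaaggcctgc
miR-3540 tag: aCGGTGGAagaacaaggcctgc
gga-miR-1552-5p reference: tTAGTGCGcggtaagctagggtg
miR-1552-5p tag: tTAGTGCGcagtaagctagggtgt
The miR-3540 tag, with 12 overfed and 15 control reads, differed by T2C, and 112 of the 113 miR-3540 reads had this substitution, which lies in the seed. None of its reads carried the reference seed. The miR-1552-5p tag, with 5 overfed and 16 control reads, differed by G10A, and all 47 reads of this name had it. G10A lies outside the seed, and 74.5% of the miR-1552-5p reads kept the reference seed. The second most common tag, with 1 overfed and 4 control reads, began 1 base before the reference and so did not keep its seed. miR-1599 was of mixed kind: 59 of its 97 reads had A7T, 94 of 97 held a run of 9 or more A, and no other name in the files held such a run.

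The third and largest group was gapped. Its 2 leading names are shown with their most common tags, bases 2 to 8 in capitals.
tgu-miR-2966 reference: cCGGGACGggaccgggacggg
miR-2966 tag: aCGGGACGggacgggacggg
tgu-miR-2981 reference: cCGGGCCGggcgggcggg
miR-2981 tag: gCTGGGCCggtcgggctggg
The miR-2966 tag consists of the unit acggg repeated throughout. It had 229 overfed and 136 control reads, 47.2% (42.7% to 51.8%) and 48.9% (42.9% to 55.0%) of the name. The remaining reads were spread over another 121 tags, and 717 of the 763 held this unit at least 2 times in a row, as no tag of another name did. Gapped reads were 479 of 485 in the overfed and 275 of 278 in the control library. Even so, 74.2% of the miR-2966 reads of both libraries carried the reference seed.

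The miR-2981 tag had 29 overfed and 12 control reads, and the 202 reads of the name were spread over 60 tags. Of these reads 28.2% scored as high or higher against a reference of another number in the files, and 5.0% carried the reference seed. By contrast, every read of miR-1559, miR-1451, miR-3540, miR-1552-5p, miR-1434 and miR-2131 scored at least 5 points higher for its own number than for any other. So did every read of miR-3535, miR-1599 and the gapped miR-1696. Gapped names thus differed among themselves: the share was 90.8% for miR-2966 and 93.3% for miR-1579, against 0.99% for miR-2981. The share scoring as high or higher elsewhere was 45.5% for miR-1607, 36.4% for miR-1763 and 30% for miR-2974. It was 15.8% for miR-2976, 14.3% for miR-2127 and 4.14% over all bird-only reads. miR-1696 was gapped too but rested on 1 tag, tGTCCGTGatggagctgaggatc, with 21 overfed and 40 control reads and 2 mismatches. miR-1755, with 12 overfed and 7 control reads in 2 tags, was wholly gapped as well. miR-2976, miR-1576, miR-1579, miR-2127, miR-1607, miR-1763, miR-1845 and miR-2974, with 10 to 38 reads each, were mostly gapped and had GC contents of 76.2% to 85.7%.

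GC content followed the same division only in part. Of the 20 names with at least 10 reads, 10 had references of at least 65% GC, a limit chosen after the values had been seen, and none of these 10 had an exact read. The 10 names below the limit included all 5 mostly exact names, with exact shares of 89.5% to 100%. The rest below the limit, miR-3540, miR-1599, miR-1696, miR-1552-5p and miR-1755, had no exact read, and miR-1696 and miR-1755 were wholly gapped. The median exact share of the 10 names, 44.7%, thus lay near no single name. Over the 20 names, GC content and the share of reads without a mismatch had a Pearson correlation of -0.53 and a Spearman correlation of -0.29. That share also counts gapped reads listed without a mismatch, so it is not the exact share. Among other names with at least 10 reads, 4 of 43 above the limit and 253 of 360 below it were mostly exact. The part of repeated sequence was not tested. miR-1599 had 33.3% distinct triplets at 35% GC, and miR-1845 had 81.25% distinct triplets at 83.3% GC.

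**Figure D3:**
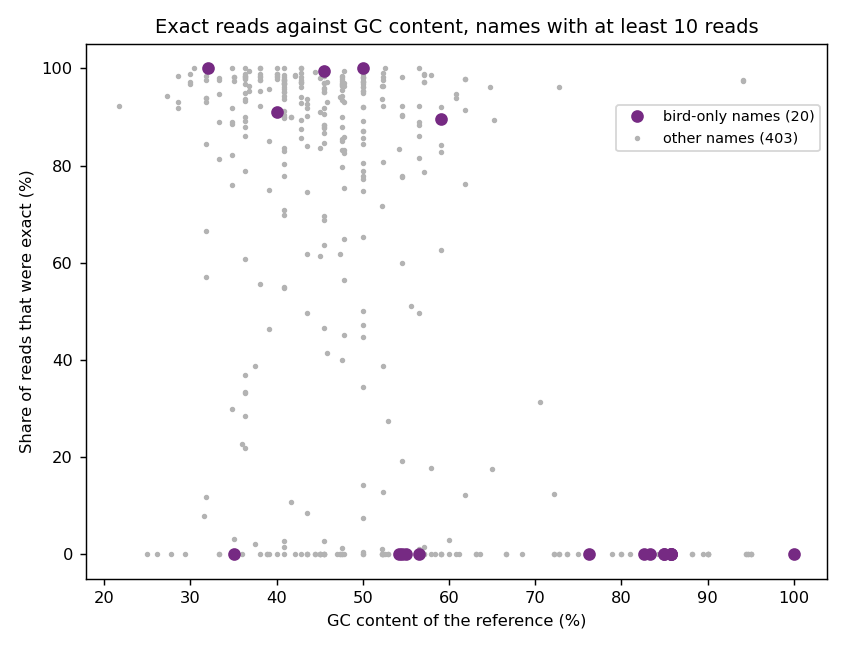
GC content of the reference (percent) against the share of exact reads (percent) for names with at least 10 reads, with 20 bird-only names (purple) and 403 other names (grey). All 10 bird-only names of at least 65% GC lie at 0%.

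A defined miRNA family was listed for 16 of the 102 names, and 86 were of undefined family. Names with a family held 369 overfed and 279 control reads, of which 87.3% (83.4% to 90.5%) and 91.4% (87.5% to 94.4%) had no mismatch. Names without one held 953 overfed and 643 control reads, of which 9.13% (7.38% to 11.1%) and 11.4% (9.01% to 14.1%) had none. These shares rested on few names: miR-1559 and miR-1451 gave 403 and 133 of the 648 reads with a family, and 11 of the 16 names, miR-2976 among them, had no exact read. miR-2131 had no family and only exact reads.

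Few names gave both arms of a hairpin. miR-1552-5p had 47 reads and miR-1552-3p 1 read. miR-1416 had 2 reads and its star arm 4, and miR-1648 had 4 reads and its star arm 1. At these counts no balance of arms could be read.

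The comparison of overfed with control liver asked which bird-only names differed between fatty and normal liver. A name met the rule of size when it averaged 10 RPM or more over both libraries, differed by a factor of 2 or more, and had a counting interval that excludes 1. Of the 3 names past the minimum, 0 met it, where 8.65% of the 185 names tested in the whole table did (7.57% higher, 1.08% lower). miR-2966 had a log2 ratio of 0.72 (0.50 to 0.94) and miR-2981 of 0.99 (0.55 to 1.44), both higher in the overfed library beyond counting error, at 1.64 and 1.99 times. With tags without a mismatch, the miR-2966 ratio was 0.58 (-0.20 to 1.38) and that of miR-2981 turned to -0.31 (-2.16 to 1.49, from 13 reads). With tags of at least 21 bases, that of miR-2966 was 0.48, with an interval that reached 0 (upper limit 0.96). miR-1559 had a log2 ratio of 0.11 (-0.18 to 0.40), which turned to -0.06 with TMM factors and to -0.78 (-1.44 to -0.14) with reads of at least 21 bases. An interval that excludes 1 was common in the whole table, at 75.7% of the 185 names (38.9% higher, 36.8% lower), so 2 of 3 is not a result about the bird-only names.

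With the minimum lowered to 1 RPM, 12 bird-only names were compared and 4 met the rule, against 13.5% of 355 names in the whole table. Of the 12 names compared, 2 met it as higher, against 11.3% of the 355 names. miR-1434 had 36 overfed reads against 9 control reads, a log2 ratio of 1.91 (0.83 to 3.15), and its exact reads gave 1.96 (0.82 to 3.28). miR-2976 had 27 overfed against 11 control reads, a log2 ratio of 1.21 (0.15 to 2.37), whose interval reached -0.01 with TMM factors. Another 2 of the 12 met it as lower, against 2.25% of the 355 names. miR-1696 had 21 overfed against 40 control reads (log2 ratio -1.01, -1.85 to -0.22), and miR-1552-5p had 14 against 33 (-1.32, -2.34 to -0.38). Of these 4, miR-1434 was the only one with exact reads. The interval excluded 1 for 6 of the 12, with 4 higher and 2 lower, against 54.9% of the 355 names (31% higher, 23.9% lower), near the share in the whole table. miR-2974, under this minimum, had 10 overfed reads and no control read, at least 3.14-fold higher against the limit of 3 counts per library. The counting interval of its log2 ratio began lower, at 1.08, and had no upper limit.

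Over all read lengths, the other names with exact reads had intervals that include a ratio of 1. miR-1451 had a log2 ratio of 0.11 (-0.40 to 0.63), which was -0.06 with TMM factors, and miR-2131 of -0.09 (-1.03 to 0.86), which was 0.055 when miR-122-5p was left out of the totals. Intervals this wide do not show that the levels were alike. miR-3540 had a log2 ratio of -0.47 (-1.04 to 0.09). With TMM factors it was -0.64 (-1.20 to -0.08), an interval that excludes a ratio of 1. miR-1599 had a log2 ratio of 0.06 (-0.54 to 0.67, and -0.10 with TMM factors). Summed over all bird-only names, exact reads stood at 34.7 RPM in the overfed and 31.0 RPM in the control library, a log2 ratio of 0.16 (-0.07 to 0.39).

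The gapped reads were higher in the overfed library, at 85.6 RPM against 52.9 RPM in the control library, a log2 ratio of 0.69 (0.53 to 0.86). Gapped reads of all other names had a log2 ratio of -0.17 (-0.18 to -0.16), but those of other names with at least 65% GC had one of 0.64 (0.52 to 0.76), with 1413 overfed and 855 control reads. Substituted bird-only reads stood at 15.4 and 16.5 RPM (-0.09, -0.43 to 0.24). The sum of all bird-only reads, with a log2 ratio of 0.43 (0.31 to 0.56), was made up for the most part of gapped reads, which were 834 of the 1322 overfed and 486 of the 922 control reads. The summed ratio turned to -0.029 (-0.23 to 0.17) with tags of at least 21 bases, and was 0.13 (-0.045 to 0.31) for numbers with the chicken prefix only.

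The difference lay in names of high GC content. Their gapped reads stood at 75.1 RPM in the overfed and 41.6 RPM in the control library, a log2 ratio of 0.85 (0.67 to 1.03). With reads of all kinds, the 24 bird-only names of at least 65% GC summed to 76.7 RPM in the overfed and 42.4 RPM in the control library, a log2 ratio of 0.86 (0.68 to 1.04). Without miR-2966 the ratio of the other 23 was 1.15 (0.83 to 1.49). The 78 names below the limit summed to 59.0 and 58.1 RPM, a log2 ratio of 0.02 (-0.15 to 0.20), and their gapped reads alone gave -0.10 (-0.51 to 0.31). The pattern was not particular to bird-only names. The 145 other names of at least 65% GC had a log2 ratio of 0.67 (0.64 to 0.70). Without the most abundant of them it was 0.88 (0.83 to 0.93). Exact reads of the 145 names came from only 11 of them and gave 0.71 (0.67 to 0.74). Without the most abundant name, exact reads came from 10 names and gave 1.02 (0.96 to 1.08).

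Read length moved with the group as well. Bird-only reads of 18 to 20 bases were 68.3% (65.7% to 70.8%) of the overfed and 56.3% (53.0% to 59.5%) of the control reads. Below the GC limit, bird-only reads of 18 to 20 bases had a log2 ratio of 0.42 (0.16 to 0.68) and those of at least 21 bases one of -0.30 (-0.53 to -0.06). At or above the limit both lengths were higher in the overfed library, with 0.88 (0.68 to 1.08) and 0.76 (0.34 to 1.18). Reads of GC-rich names were thus higher in the overfed library at either length. This was not particular to bird-only names. Below the limit, other names had 0.34 for reads of 18 to 20 bases and -0.018 for those of at least 21 bases. At or above it they had 0.71 and 0.54. The part of RNA quality or of library preparation in this was not tested.

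**Figure D4:**
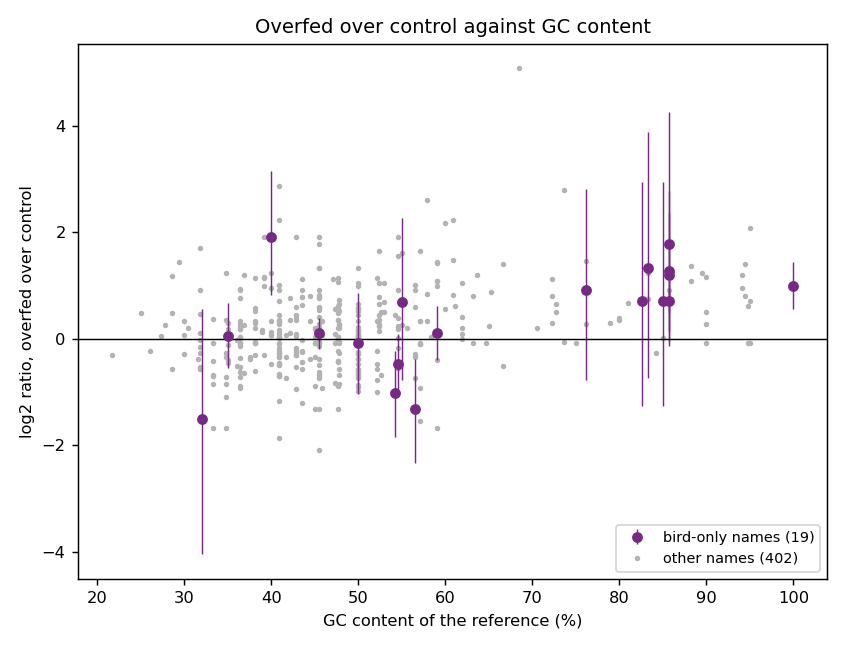
GC content of the reference (percent) against the log2 ratio of overfed over control for names with at least 10 reads and reads in both libraries, with 19 bird-only names (purple, 95% counting intervals) and 402 other names (grey). The 9 bird-only names at or above 65% GC all lie above 0, where the intervals of 6 of them reach below 0, and those under 65% lie on both sides. Of 43 other names with at least 10 reads at or above 65% GC, 35 had a ratio above 0 as well.

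The 2 libraries shared fewer of their bird-only tags than of other tags. Of 386 overfed and 271 control tags of bird-only names, 113 were found in both, 29.3% of the overfed and 41.7% of the control tags. For all other names the shares were 51.7% and 54.0%. The shared tags nevertheless held 74.9% of overfed and 81.3% of control bird-only reads. These shares depend on read number, which is far lower for the bird-only names.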

How the data were processed

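The authors deposited, for each library, the raw read count of every distinct tag matched to a miRNA. Each row gives a listed reference, its family, mismatches, unpaired bases and an alignment score. In all rows the score equalled 2 per matched base less 1 per mismatch and 3 per unpaired base. The listed reference did not always score highest: the most common miR-1607 tag scored 24 against its own and 27 against that of miR-2881. RNA was taken up with Trizol and cut from a gel at 20 to 30 nt, per the labels' protocols; tags in the files had 18 to 31 bases. For the aligner and the miRNA database, name and release were not given in the sources used here. Totals are of listed miRNA reads, and 1 read was 0.103 RPM in the overfed and 0.109 in the control library; the floor of 3 counts was 0.308 RPM in the overfed and 0.327 RPM in the control library.

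Counts were summed by name without prefix, and names were not joined further. Ratios carry exact conditional binomial intervals. All 544 bird-only tags were aligned again and met the deposited score. The text names the 20 names with the most reads, those that met the rule of size, and single names chosen after their values were seen. The members and lists were chosen with earlier results of these data known. The rule was also run on simulated counts with planted changes and counting error alone. Such counts hold no differences between birds or libraries, so they cannot show how the rule behaves under them. Alternatives used edgeR 4.0.16 (TMM) and DESeq2 1.42.0 (median of ratios) in R 4.3.3; the rest used Python 3.11.15, numpy 2.4.6, pandas 2.3.3, scipy 1.17.1, numba 0.67.0 and matplotlib 3.10.9. Without molecular identifiers, the intervals hold counting error alone. No genome positions were looked up, as the annotation at hand lists no miRNA genes.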

Additional observations from a re-analysis of the deposited data

How the results depend on the processing

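No paired analysis was possible because there was 1 library per group, and no replicate could be left out. TMM factors shift every log2 ratio by -0.17 and median-of-ratios factors by -0.06. The summed log2 ratio of 0.43 was 0.57 with scaling without miR-122-5p, 0.27 with TMM factors, 0.23 with tags without a mismatch, 0.13 with numbers of chicken prefix only, 0.80 with zebra finch prefix only and 0.29 without miR-2966, and it turned to -0.029 with tags of at least 21 bases. The count of 0 names meeting the rule became 1 of 6 with scaling without miR-122-5p (miR-2981), against 32 of 241 names in the whole table. It became 5 of 102 without a minimum, against 60 of 1343, and 4 of 12 with 1 RPM, against 48 of 355. At 1.5 times it became 2 of 3 (miR-2966 and miR-2981), against 50 of 185. It stayed 0 under the other 10 settings, of which 2 left no name past the minimum. The overfed share without a mismatch of 30.9% was 44.3% without miR-2966 and 76.5% with 0 or 1 mismatch, and the control share of 35.6% was 47.2% and 78.3%.

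Chosen after seeing the data, scaling without both miR-122 and miR-122-5p gave a summed log2 ratio of 0.53. It again gave 1 name of 7 (miR-2981), against 39 of 269 in the whole table. Also chosen after seeing the data, leaving out miR-2966, miR-2981 and miR-1599 gave a summed log2 ratio of 0.20. Names with a defined family, chosen likewise, gave shares without a mismatch of 87.3% and 91.4%. The GC-rich log2 ratio of 0.86 was 1.15 without miR-2966 and lay between 0.69 and 0.996 under the other 8 settings. Of 100 values of single names under alternatives, 96 lay within their counting interval; outside it lay miR-2966 (0.48), miR-1559 (-0.78) and miR-2981 (from 8 reads) with tags of at least 21 bases and miR-2981 (-0.31, from 13 reads) with tags without a mismatch. The cause was not tested. At this depth 82 of the 102 names have too few reads for any comparison.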
